A study of Mus musculus with 6 samples.

Results

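An osteoclast dissolves bone mineral with acid, and the genes of that acid machinery were compared between osteoclasts of Ctsk-Cre;Ano1fl/fl and Ano1fl/fl mice. The group took every gene name on the array that begins with Atp6v or Atp6ap, the names of the subunits and accessory proteins of the vacuolar proton pump, together with Tcirg1, Clcn7, Ostm1, Car2, Slc4a2, Slc9b2, Snx10, Plekhm1, Clcn3, Clcn4-2, Clcn5 and Clcn6. This gave 37 genes with 72 probes, of the 37074 gene names and 56605 probes on the array. The rule uses names and no measured value, but it was written with earlier results of these data known.

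The arrays held RNA from cultures of bone marrow cells that had been given RANKL, the cytokine that drives osteoclast formation, for 5 days. There were 3 Ano1fl/fl and 3 Ctsk-Cre;Ano1fl/fl arrays, 1 mouse to an array, and the mice of the Ano1fl/fl group were littermates of the others. Marrow for osteoclast cultures in this study came from mice 6 to 8 weeks of age. Both groups carried Ano1, the gene of a calcium-activated chloride channel, with loxP sites around it. In the Ctsk-Cre;Ano1fl/fl group the Cre recombinase was made from the regulatory sequence of the cathepsin K gene, which is switched on as osteoclasts mature, so that cells of the culture that do not use this gene keep Ano1. The labels state neither separate culture days nor batches, and the p-values below measure the spread between these 6 cultures.

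In a resorbing osteoclast, carbonic anhydrase turns carbon dioxide and water into bicarbonate and a proton. The vacuolar proton pump, or V-ATPase, sits in the ruffled border, the folded membrane that faces the bone, and moves the protons out. Its V1 sector lies in the cytoplasm and splits ATP, its V0 sector lies in the membrane and carries the protons, and chloride leaves beside them so that charge does not build up. The same pump, with partly different subunits, acidifies lysosomes and endosomes in nearly every cell, and loss of several of these genes causes osteopetrosis, an excess of bone that is not resorbed.

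All 6 arrays shared 1 slide and 1 scan. Between 33480 and 34951 of the 59305 transcript spots of an array were well above background by the scanner's own mark, and none was saturated. The arrays of a group correlated with each other at r of 0.9941 to 0.9965 over the tested probes, and arrays of different groups at 0.9440 to 0.9498. The targeted gene could not check the labels, since the single Ano1 probe was below background on every array, with processed signals of 3.28, 3.22 and 3.91 in the Ano1fl/fl group and 3.23, 3.25 and 3.81 in the Ctsk-Cre;Ano1fl/fl group. Every direction below is therefore that of the arrays as labelled, and all would turn if the labels of the groups were exchanged. By their brightest probes the osteoclast markers Acp5, Ctsk, Mmp9 and Nfatc1 were higher on the Ctsk-Cre;Ano1fl/fl arrays. The log2 differences were 0.84, 3.17, 4.36 and 0.53, although another Nfatc1 probe was called lower. The rises by the brightest probes are the reverse of the direction that the study gives for these markers by qRT-PCR in cultures of these genotypes. For such Ctsk-Cre;Ano1fl/fl cultures the study also reports less extracellular acidification, a smaller area of resorption pits and fewer multinucleated osteoclasts. It gives NFATc1 and c-Fos protein as lower there, and Fos RNA was lower on the Ctsk-Cre;Ano1fl/fl arrays as labelled (-1.52). Whether labels were exchanged was not tested. All 11 osteoclast markers on the array were well above background on every Ctsk-Cre;Ano1fl/fl array, and all but Calcr, which was so on 2 arrays, on every Ano1fl/fl array.

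For the genes of acid supply (Slc9b2, Car2 and Slc4a2), for Atp6v0d2, Snx10, Clcn7 and Tcirg1, whose signals are listed by array further on, and for Atp6v0a1, whose probes disagreed, the first 30 of the 60 bases of the array probes are given here with the mm9 positions of the whole probes in the array files, since each value below is the brightness of a single such probe. For Atp6v0a1 the probe called lower is shown after the brightest one.
Slc9b2, chr3:135005416-135005475: tacttcctcagaaagaccggaggacaggtt
Car2, chr3:14900206-14900265: cctctcatccgttgtgcttactaacaaaat
Atp6v0d2, chr4:19805367-19805426: agcagaatgcatctcacagaggcatcgaac
Snx10, chr6:51540112-51540171: ctgggaaccagcagaaggaattttcaccta
Slc4a2, chr5:23946704-23946763: atttaagtgaataatttaaagcccccttct
Clcn7, chr17:25298967-25299026: gtccacagctgtgtgctgactacatgctga
Tcirg1, chr19:3896062-3896121: gtgactagctacccactgcaatccctgctt
Atp6v0a1, brightest probe, chr11:100924969-100925028: accctgtccaaggccttctgtccagacatc
Atp6v0a1, probe called lower, chr11:100880956-100881015: tagacgtcatctgagcagtttatgagaagt

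To be tested, a probe had to clear the background on each of the 3 arrays in 1 group or the other. Of the 37 genes, 30 had such a probe, and the brightest probe of each of these 30 was well above background on all 6 arrays, so none entered through 1 group alone. Among single probes, 58 of 72 were tested and 2 of them passed in 1 group only. Atp6ap1l, Atp6v0a4, Atp6v0e2, Atp6v1b1, Atp6v1c2, Atp6v1e2 and Atp6v1g3 were not tested. Of these, Atp6v1e2 was well above background on 1 Ano1fl/fl array and the other 6 genes on none. Atp6v0a4 and Atp6v1b1 are known from acid-secreting cells of the kidney and inner ear.

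Most of the acid machinery was higher on the Ctsk-Cre;Ano1fl/fl arrays. By the brightest probe, 25 of the 30 tested genes were higher at an adjusted p under 0.05 in limma, 2 were lower (Atp6v0a2 and Atp6v1g2) and 3 were not called (Clcn3, Clcn4-2 and Clcn5). Over all 20650 gene names tested in the same way, 23.0% were higher and 28.5% lower, against 83.3% and 6.67% of the tested members. The median log2 difference was 0.71 for the members and -0.06 for all gene names. A difference of more than 2-fold with the same adjusted p was met by 9 members, all higher, while over all gene names 9.90% were higher and 7.20% lower by that rule. The 2 groups of arrays did not overlap for 28 of the 30 members and for 64.0% of all gene names. Counted over single probes, 37 of 58 were higher and 5 lower, beside 21.8% higher and 30.6% lower over all 31848 probes tested.

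Markers of several cell types differed between the groups as well. In RNA from a whole culture, fewer cells of a type and less RNA per cell cannot be told apart. Of 11 tested osteoclast markers, 10 were higher and 1 (Tnfrsf11a, the receptor for RANKL, -0.40) was lower, with a median of 2.77, and their summed level, on the log2 scale, was 17.25 to 17.35 in Ano1fl/fl cultures and 18.90 to 19.07 on the Ctsk-Cre;Ano1fl/fl arrays. Of 14 tested stromal and osteoblast markers, 11 were higher and 2 lower, with sums of 11.84 to 12.17 and 16.00 to 16.72. All 5 B cell markers were higher, with sums of 12.86 to 13.13 and 14.81 to 15.77. Of 8 neutrophil markers 5 were lower and 1 higher, with sums of 18.26 to 18.33 and 17.69 to 18.01, and of 7 macrophage markers 2 were lower and 1 higher, with sums of 18.42 to 18.50 and 18.50 to 18.67. All of these cell types have the common pump subunits, and the part of each in the members' differences was not tested.

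**Figure D1:**
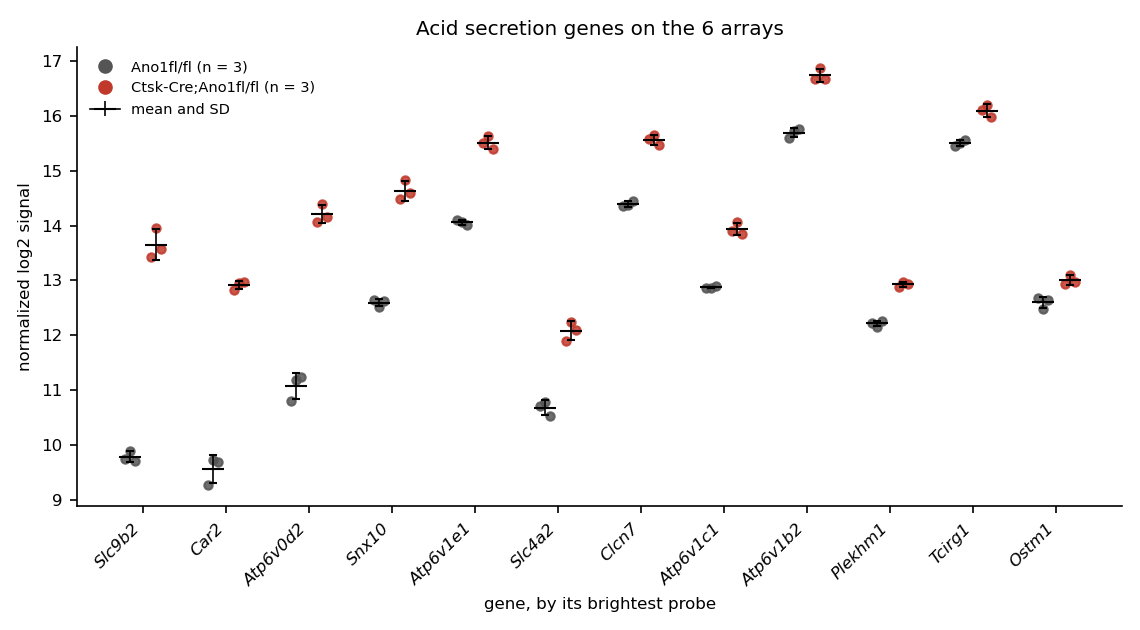
Normalized log2 signal of 12 acid secretion genes on each of the 6 arrays, by the brightest probe of each gene. Points are arrays, grey for Ano1fl/fl (n = 3) and red for Ctsk-Cre;Ano1fl/fl (n = 3), and the crosses give the mean and SD of a group. In each gene the 3 red points lie above the 3 grey ones, with the widest gap for Slc9b2 (3.87) and the narrowest for Ostm1 (0.40).

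All 3 genes that supply the acid and balance its ions were more than 2-fold higher, and Slc9b2 and Car2 had the largest differences of the members by their brightest probes. Slc9b2, a sodium-proton antiporter known to be induced as osteoclasts form, had normalized log2 signals of 9.75, 9.90 and 9.71 in Ano1fl/fl cultures and 13.43, 13.96 and 13.57 on the Ctsk-Cre;Ano1fl/fl arrays. The lowest Ctsk-Cre;Ano1fl/fl array was thus far above the highest of the other group, a 14.6-fold difference (log2 3.87, standard error 0.15, adjusted p = 1.57e-05). A second probe of Slc9b2 rose by 4.09 (standard error 0.14).

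Car2, the cytoplasmic carbonic anhydrase that makes the proton in osteoclasts, had signals of 9.27, 9.74 and 9.70 in the Ano1fl/fl group and 12.83, 12.96 and 12.97 in the Ctsk-Cre;Ano1fl/fl group. The groups lay apart, with a log2 difference of 3.34 (standard error 0.14, adjusted p = 1.94e-05) or 10.1-fold. Red cell precursors also hold Car2. Of the red cell markers, Klf1, Alas2, Epb4.2 and Hbb-b1 were below background on all 6 arrays, Hba-a1 fell by 1.09 (standard error 0.22, adjusted p = 0.00682) and Car1 gave 0.39 and was not called (adjusted p = 0.0868). The part of such cells in the Car2 difference was not tested.

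Slc4a2, the anion exchanger that takes the leftover bicarbonate out in return for chloride, read 10.72, 10.79 and 10.53 on the Ano1fl/fl arrays. On the Ctsk-Cre;Ano1fl/fl arrays it read 11.90, 12.25 and 12.10, all above the first group. The log2 difference was 1.40 (standard error 0.12, adjusted p = 0.000251), or 2.64-fold.

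Of the V0 sector, 8 of 10 genes were tested, and by the brightest probe 7 were higher and 1 lower. The calls of Atp6v0a1 and Atp6v0e among the 7 were lost with the mean of all probes. The largest change was in Atp6v0d2, a form of the stalk subunit d that is abundant in osteoclasts and has been tied to their fusion. It read 10.81, 11.18 and 11.25 in the Ano1fl/fl cultures and 14.07, 14.40 and 14.16 in the Ctsk-Cre;Ano1fl/fl cultures, so that the groups did not overlap. The difference was 8.73-fold (log2 3.13, standard error 0.15, adjusted p = 2.92e-05), and a second probe rose by 3.58 (standard error 0.14). Its relative Atp6v0d1, the form of subunit d found in most tissues, rose by 0.79 (standard error 0.09).

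Tcirg1 encodes the form of the large membrane subunit a that brings the pump to the ruffled border, and it is the gene most often mutated in recessive osteopetrosis. It read 15.44, 15.51 and 15.55 in the Ano1fl/fl group and 16.10, 16.20 and 15.98 in the Ctsk-Cre;Ano1fl/fl group. The groups lay apart, but by much less than for Atp6v0d2, with a log2 difference of 0.59 (standard error 0.09, adjusted p = 0.00196), or 1.51-fold. Its second probe rose by 0.72.

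The other forms of subunit a did not move together. Atp6v0a2, the form of the Golgi and endosomes, was lower by all 3 of its probes. The brightest read 12.06, 11.92 and 12.05 in Ano1fl/fl cultures and 11.71, 11.63 and 11.56 on the others, a log2 difference of -0.38 (standard error 0.08, adjusted p = 0.00955), and the other probes gave -0.47 and -0.81. For Atp6v0a1, the form of lysosomes and synaptic vesicles, the probes disagreed. The brightest rose by 0.49 (standard error 0.09), whereas a probe designed on another transcript record fell by 0.47 (standard error 0.13, adjusted p = 0.0255), and the remaining 2 tested probes, at 0.11 and -0.78, were not called. This was the single member with probes called in opposite directions. Its mean over all tested probes was -0.16 (adjusted p = 0.301). That mean takes in the probe at -0.78, which passed the filter through the Ano1fl/fl group alone. No direction is given for the gene as a whole.

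Both genes of the proton-carrying ring rose at each of their tested probes. Atp6v0c, its main subunit, rose by 0.50 (standard error 0.09) and by 0.72 at a second probe. Atp6v0b, the related ring subunit, rose by 0.70 and 0.80 at its 2 probes. Atp6v0e, a small membrane subunit, rose by 0.47 at the brightest probe, but a probe on another transcript record gave -0.23 and was not called, and the mean of the 2 probes, 0.12, did not pass the test (adjusted p = 0.321). Both tested accessory genes were higher, Atp6ap1 by 0.41 and 0.51 at its 2 probes and Atp6ap2, also known as the prorenin receptor, by 0.40.

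Of the 13 genes of the V1 sector, 9 were tested, and 8 were higher and 1 lower. The rises ran from 0.42 to 1.45 on the log2 scale, and 3 of them were more than 2-fold. Atp6v1e1, a subunit of the peripheral stalks that hold the pump together, led them, with signals of 14.10, 14.06 and 14.01 in the Ano1fl/fl group and 15.50, 15.63 and 15.39 in the Ctsk-Cre;Ano1fl/fl group. This was a 2.74-fold difference (log2 1.45, standard error 0.09, adjusted p = 6.75e-05), wider than the range within either group. Atp6v1c1, which encodes subunit C, read 12.87, 12.86 and 12.89 against 13.90, 14.06 and 13.85. It rose by 1.06 (standard error 0.08, adjusted p = 0.000177).

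Atp6v1b2, the form of the ATP-binding subunit B that osteoclasts use, read 15.60, 15.72 and 15.76 in Ano1fl/fl cultures and 16.67, 16.87 and 16.66 on the Ctsk-Cre;Ano1fl/fl arrays. It rose by 1.04 (standard error 0.09, adjusted p = 0.000298) with no overlap, and by 0.66 at a second probe. Atp6v1a, the catalytic subunit that pairs with it, rose by 0.63 (standard error 0.08). The remaining rises were in Atp6v1h, a regulatory subunit (0.93 at the brightest probe and 1.1 at a second), Atp6v1g1 of the peripheral stalk (0.90), and Atp6v1d and Atp6v1f of the central shaft (0.85 and 0.42). The last tested probe of Atp6v1h, designed on another transcript record, gave -0.04 and was not called.

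Atp6v1g2, a form of the stalk subunit G known mostly from neurons, was the single V1 gene called lower, and this rests on 1 of its 3 probes. The brightest, designed on an Ensembl transcript, read 6.83, 6.89 and 6.87 in the Ano1fl/fl group and 6.00, 6.07 and 6.14 in the Ctsk-Cre;Ano1fl/fl group. It fell by 0.79 (standard error 0.07, adjusted p = 0.000359), while both probes on the RefSeq transcript gave 0.08 and 0.34 and were not called. The mean over its probes was -0.12 (adjusted p = 0.342). That mean takes in the probe at 0.34, which passed the filter through the Ctsk-Cre;Ano1fl/fl group alone. The brightest probe gave -0.47 after normexp background correction.

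**Figure D2:**
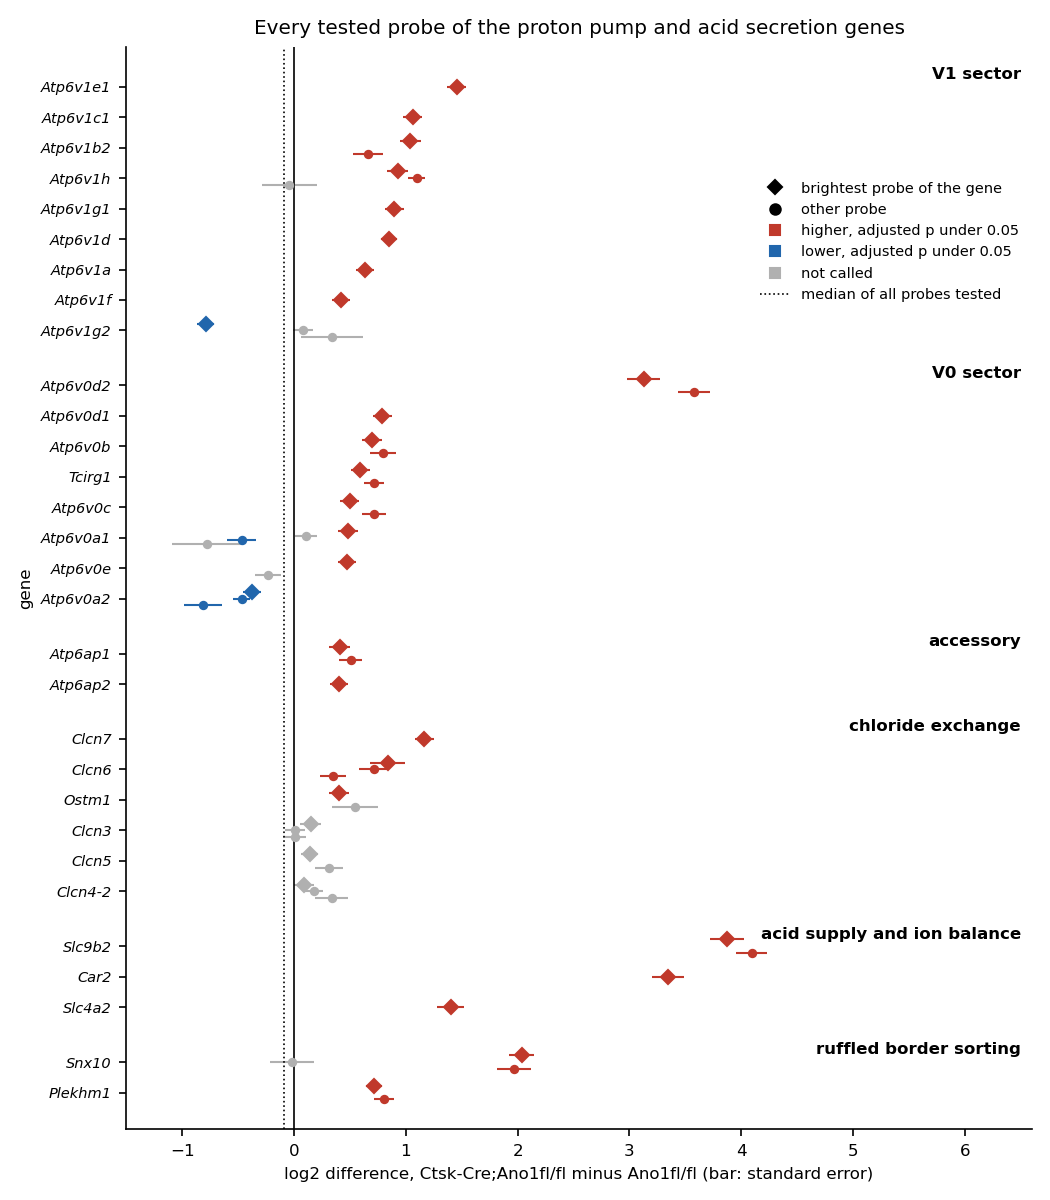
Log2 difference (Ctsk-Cre;Ano1fl/fl minus Ano1fl/fl) of each of the 58 tested probes, by gene and role. Bars are standard errors, diamonds mark the brightest probe of a gene, red and blue mark probes called higher and lower and grey those not called, and the dotted line is the median of all probes tested (-0.09). Slc9b2, Car2 and Atp6v0d2 stand above 3, most pump subunits lie between 0.4 and 1.5, and Clcn3, Clcn4-2 and Clcn5 lie near 0.

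The chloride exchangers parted into genes that rose and genes that were not called. Clcn7, the chloride-proton exchanger of lysosomes and the ruffled border, read 14.35, 14.37 and 14.45 in Ano1fl/fl cultures and 15.57, 15.64 and 15.46 on the Ctsk-Cre;Ano1fl/fl arrays. The groups lay apart by a log2 difference of 1.17 (standard error 0.08, adjusted p = 0.000118). Ostm1, the partner protein without which the Clcn7 protein is unstable, read 12.68, 12.48 and 12.64 against 12.93, 13.10 and 12.98. It rose by 0.40 (standard error 0.09, adjusted p = 0.0109), the smallest rise among the members listed here array by array, and a dim second probe gave 0.55 and was not called (adjusted p = 0.0671).

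Clcn6, an exchanger of late endosomes, rose by 0.84, 0.71 and 0.35 at its 3 tested probes, the first of which gave 0.50 after normexp background correction. The exchangers of earlier endosomes did not pass the test at any tested probe. Their brightest probes gave 0.15 for Clcn3 (standard error 0.09, adjusted p = 0.220), 0.09 for Clcn4-2 (standard error 0.09, adjusted p = 0.435) and 0.14 for Clcn5 (standard error 0.08, adjusted p = 0.166). Over all 8 tested probes of these 3 genes the differences ran from 0.01 to 0.34.

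Both genes that sort membrane to the ruffled border were higher. Snx10, a sorting nexin whose loss causes osteopetrosis, read 12.64, 12.52 and 12.62 in the Ano1fl/fl group and 14.48, 14.83 and 14.59 in the Ctsk-Cre;Ano1fl/fl group. The groups were far apart, with a 4.10-fold difference (log2 2.04, standard error 0.11, adjusted p = 4.54e-05). A second probe on the same RefSeq transcript rose by 1.97, and the last, on an Ensembl transcript, gave -0.02 and was not called, so that the mean of its probes was 1.33. Plekhm1, an adaptor that links late endosomes and lysosomes to their partners for fusion, read 12.23, 12.16 and 12.26 against 12.88, 12.98 and 12.93, and rose by 0.71 (standard error 0.07, adjusted p = 0.000496).

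Where the pump has several forms of a subunit, the log2 ratio of the brightest probes of 2 related genes was taken on each array, which shows unequal change and not which form is more abundant. Of 13 pairs, 8 could be computed. With 3 arrays against 3 the exact permutation test, two-sided, cannot give a p below 0.1, and the lowest value after Benjamini-Hochberg adjustment over the pairs was 0.267, so none passed. The ratio of Atp6v0d2 to Atp6v0d1 was -2.48, -2.17 and -2.0 in Ano1fl/fl cultures and -0.14, 0.37 and 0.13 on the Ctsk-Cre;Ano1fl/fl arrays, a change of 2.34 with no overlap (exact p = 0.1). The ratio of Tcirg1 to Atp6v0a1 changed by 0.11 (exact p = 0.2), but by 0.82 (exact p = 0.1) with the mean of all probes of each gene. The mean of Atp6v0a1 takes in a probe that passed the filter through the Ano1fl/fl group alone.

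The ratio of Atp6v0a2 to Atp6v0a1 changed by -0.86 and that of Atp6v1g2 to Atp6v1g1 by -1.69, both without overlap (exact p = 0.1 each) and both resting on genes whose probes disagreed. With the mean of all probes these changes were -0.39 and -1.02. Those means take in an Atp6v0a1 probe that passed the filter through Ano1fl/fl alone and an Atp6v1g2 probe that passed through Ctsk-Cre;Ano1fl/fl alone. Clcn5 to Clcn3 changed by -0.01 (exact p = 0.9), Clcn4-2 to Clcn3 by -0.06 (exact p = 0.5) and Clcn6 to Clcn7 by -0.33 (exact p = 0.2). The first 2 of these turned positive with the mean of all probes (0.17 and 0.15), and the last was -0.53 with that mean and -0.66 after normexp background correction. No change is given for Atp6v1e2 to Atp6v1e1, since Atp6v1e2 was not above background on 5 of the 6 arrays.

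**Figure D3:**
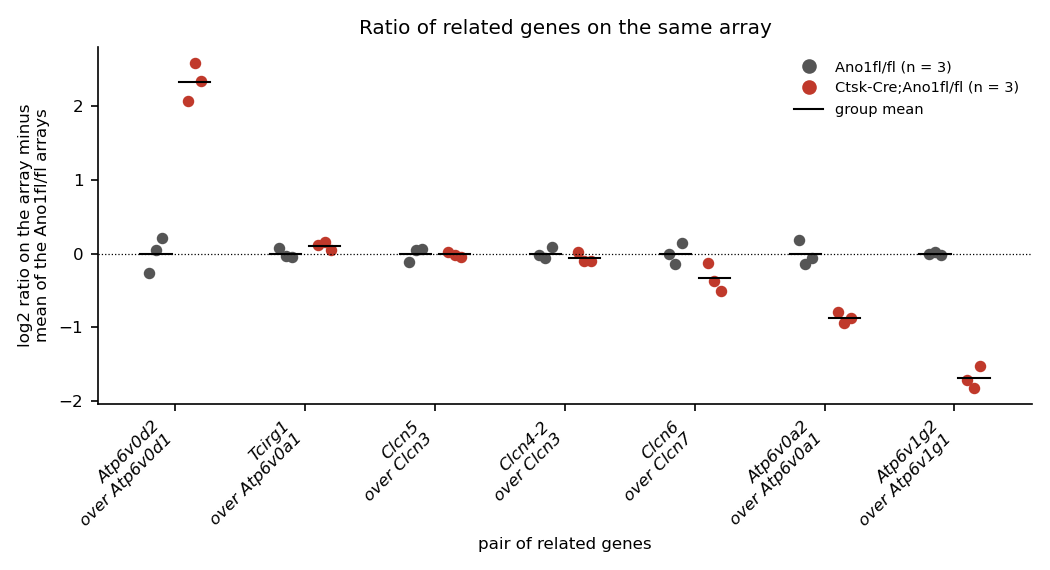
Log2 ratio of the brightest probes of 2 related genes on each array, with the mean of the Ano1fl/fl arrays set to 0. Points are arrays, grey for Ano1fl/fl (n = 3) and red for Ctsk-Cre;Ano1fl/fl (n = 3), and lines are group means. The ratio of Atp6v0d2 to Atp6v0d1 lies higher on the red arrays (by 2.34), those of Atp6v0a2 to Atp6v0a1 and Atp6v1g2 to Atp6v1g1 lie lower (-0.86 and -1.69), and the groups overlap in the other pairs.

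The promoters of many lysosomal and pump genes carry the letters CACGTG, the E-box core bound by transcription factors of the MiT/TFE family, among them Mitf, Tfeb and Tfe3, and its longer form TCACGTGA. RefSeq promoter windows (GRCm38.p6, 250 bases before to 50 after the start) were at hand for 29 of the 37 genes. Both words read the same on either strand, and the longer contains the shorter. CACGTG was present in the windows of 7 of the 29 genes and TCACGTGA in those of 5, whereas over all genes with a window 8.09% held CACGTG and 1.12% TCACGTGA. By their brightest probes, the 5 genes with TCACGTGA (Atp6v0d1, Atp6v0e, Atp6v1a, Clcn6 and Clcn7) were all called higher, as were 19 of the 29 genes with a window. The call of Atp6v0e was lost with the mean of its probes. Atp6v0b and Clcn4-2, whose current symbol is Clcn4, held the core alone.

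The 5 windows are shown because they are the members' windows with the longer word. Capitals mark CACGTG, and the longer word is present where a t precedes and an a follows the capitals.
Atp6v0d1, chr8:105566015-105566314, minus strand: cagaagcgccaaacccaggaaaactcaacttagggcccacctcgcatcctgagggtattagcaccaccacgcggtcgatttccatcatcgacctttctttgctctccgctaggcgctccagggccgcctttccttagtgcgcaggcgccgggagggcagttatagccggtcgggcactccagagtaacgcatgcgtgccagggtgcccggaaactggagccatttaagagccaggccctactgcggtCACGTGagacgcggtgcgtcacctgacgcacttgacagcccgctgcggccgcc
Atp6v0e, chr17:26676146-26676445, plus strand: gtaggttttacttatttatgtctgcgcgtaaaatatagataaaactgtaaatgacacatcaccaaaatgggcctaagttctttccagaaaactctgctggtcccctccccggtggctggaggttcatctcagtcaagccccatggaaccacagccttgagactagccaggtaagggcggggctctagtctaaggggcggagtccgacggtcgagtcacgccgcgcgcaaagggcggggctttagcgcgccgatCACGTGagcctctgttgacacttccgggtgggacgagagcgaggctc
Atp6v1a, chr16:44139210-44139509, minus strand: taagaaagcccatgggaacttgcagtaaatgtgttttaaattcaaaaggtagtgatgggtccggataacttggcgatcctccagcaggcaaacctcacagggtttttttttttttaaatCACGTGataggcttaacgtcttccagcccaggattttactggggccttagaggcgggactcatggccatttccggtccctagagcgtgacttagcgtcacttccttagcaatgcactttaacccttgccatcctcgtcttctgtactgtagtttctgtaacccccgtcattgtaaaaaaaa
Clcn6, chr4:148038764-148039063, minus strand: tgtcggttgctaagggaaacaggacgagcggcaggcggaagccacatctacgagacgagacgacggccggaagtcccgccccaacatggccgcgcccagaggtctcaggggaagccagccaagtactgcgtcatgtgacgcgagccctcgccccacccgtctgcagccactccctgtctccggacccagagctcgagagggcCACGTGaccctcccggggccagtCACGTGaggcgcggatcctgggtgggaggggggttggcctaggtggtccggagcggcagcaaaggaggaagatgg
Clcn7, chr17:25133141-25133440, plus strand: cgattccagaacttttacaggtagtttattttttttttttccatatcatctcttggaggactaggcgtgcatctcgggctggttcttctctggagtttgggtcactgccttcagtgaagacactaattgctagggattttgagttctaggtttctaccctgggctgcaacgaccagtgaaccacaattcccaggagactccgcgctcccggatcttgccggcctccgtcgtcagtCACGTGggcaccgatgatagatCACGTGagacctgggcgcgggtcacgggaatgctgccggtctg
Counted from the start of transcription, the core began at position -3 in Atp6v0d1, 4 in Atp6v0e and -131 in Atp6v1a, at -48 and -25 in Clcn6, and at -15 and 8 in Clcn7. The log2 differences of these genes were 0.79, 0.47, 0.63, 0.84 and 1.17. Slc9b2, Snx10, Slc4a2, Tcirg1 and Atp6v1e1 held neither word in their windows, and Car2 and Atp6v0d2 had no window; no match says only that the letters are not in the window. A match is a description of the letters and not a test of binding.

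Of 15 transcriptional regulators of lysosome and osteoclast genes, 4 were higher, 5 lower and 6 not called, with a median of -0.10. For this list and those that follow, the shares over all gene names were 23.0% higher and 28.5% lower. Within the MiT/TFE family Mitf fell by 0.56 (standard error 0.09) and Tfec by 0.62 (standard error 0.09), while Tfeb at 0.18 and Tfe3 at -0.18 were not called by their brightest probes, and a dimmer Tfeb probe rose by 0.38. The largest rises were Ppargc1b (1.12), a coactivator of mitochondrial genes, Fosl2 (1.1), an AP-1 factor, and Nfatc1 (0.53), the main transcription factor of osteoclast formation, although a second Nfatc1 probe gave -0.53 and was called lower. Fos, an AP-1 factor needed for osteoclast formation, fell by 1.52.

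Of 14 genes that assemble or regulate the V-ATPase, 5 were higher, 3 lower and 6 not called, with a median of 0.16. Wdr7 (0.60), a subunit of the RAVE-like complex that joins V1 to V0, Tldc2 (0.53) and Dmxl2 (0.40), the large partner of Wdr7, rose most, but 2 other probes of Wdr7 (0.34 and -0.12) were not called. Rogdi, also a member of that complex, fell by 1.15, and Pfkm (-0.39) and Ncoa7 (-0.38) by less. The assembly factors Vma21 (0.20) and Ccdc115 (-0.14) were not called. Aldoa was the brightest probe on every array, so the quantile step gave it 18.11 throughout and it carries no information on change.

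Of 23 tested genes of ruffled border trafficking, 7 were higher, 6 lower and 10 not called, with a median of 0.02. The shares over all gene names were 23.0% higher and 28.5% lower. By 75th percentile scaling 4 were higher and 8 lower. Arl8a (0.56), which moves lysosomes along microtubules, Ndel1 (0.46) and Cd63 (0.46), a lysosomal membrane protein, rose most, and Rab44 (-1.35), Def8 (-0.73), a partner of the Plekhm1 protein, and Rab27a (-0.67) fell most. The major lysosomal membrane proteins Lamp1 (0.02) and Lamp2 (-0.07) were not called.

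Of 24 tested carbonic anhydrases and other transporters of acid and base, 6 were higher, 9 lower and 9 not called, with a median of -0.17. The shares over all gene names were 23.0% higher and 28.5% lower. Slc4a3, an anion exchanger related to Slc4a2, rose by 3.34 from near background, Car6 by 1.37 and Car13 by 1.25. Slc4a7, a bicarbonate importer, fell by 1.11 and Slc9a9, an endosomal sodium-proton exchanger, by 1.32, and Car5b was at least 2.05-fold lower, being below background on all Ctsk-Cre;Ano1fl/fl arrays.

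Among 16 other chloride channel genes, 9 were higher, 4 lower and 3 not called, with a median of 0.42. Clic5 rose by 3.70 at its brightest probe, but its other tested probe gave -0.19 and was not called. Lrrc8e, a subunit of the volume-regulated channel, was below background on all Ano1fl/fl arrays and at least 1.87-fold higher in the other group. Cftr was below background on all Ctsk-Cre;Ano1fl/fl arrays and at least 1.37-fold lower there, Lrrc8b fell by 0.88 and Best2 by 0.46. These lists were written with earlier results of these data known, and their counts are a description beside the members.

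**Figure D4:**
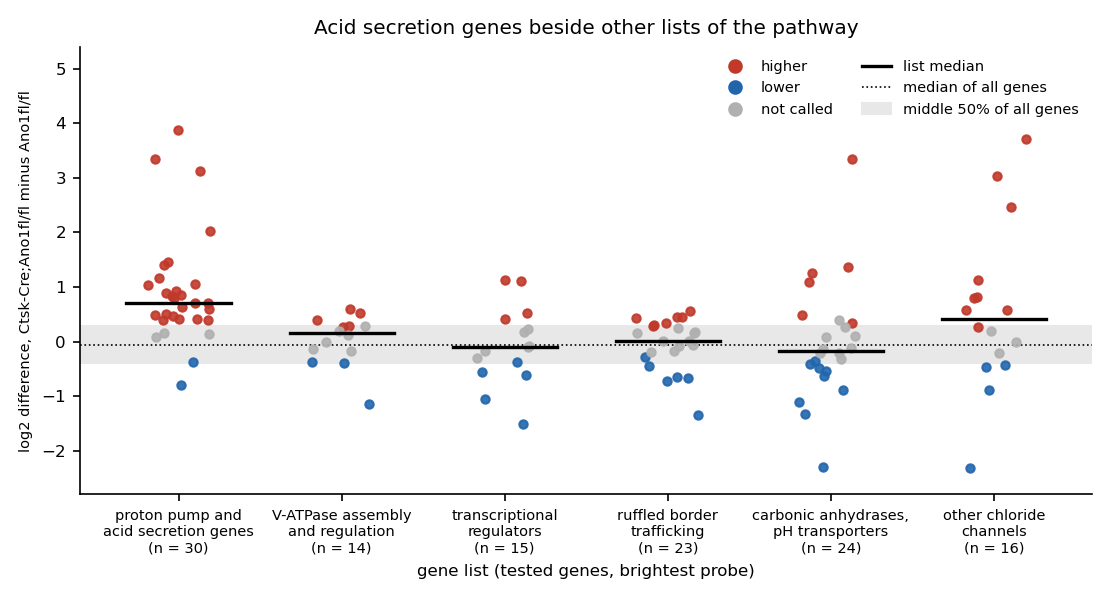
Log2 difference (Ctsk-Cre;Ano1fl/fl minus Ano1fl/fl) of every tested gene, by its brightest probe, in the proton pump and acid secretion genes and in 5 other lists of the pathway. Red and blue points are genes called higher and lower, grey points those not called, black lines are list medians, and the band and dotted line are the middle 50% and the median of all gene names. The members' median (0.71) lies above the band, while the median of each of the first 4 other lists, from -0.17 to 0.16, lies inside it, and that of the other chloride channels (0.42) also lies above it.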

How the data were processed

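RNA from 3 Ano1fl/fl and 3 Ctsk-Cre;Ano1fl/fl cultures was labelled with Cy3 and hybridised to Agilent one-colour mouse arrays (design 074809). The authors deposited the intensity of every spot as read by Agilent Feature Extraction 10.7.1.1 (submitters' processing notes), and the processed signal, from which the software had removed background and trends, was used. The deposited series matrix also holds intensities, equal to the spot medians (largest difference 0) and so not normalized between arrays. The study's methods name quantile normalization, which was run here on log2 processed signals with limma 3.58.1 in R 4.3.3 (with version 1.17.8 of data.table, Python 3.11.15, pandas 2.3.3 and matplotlib 3.10.9). No column of another sample was present.

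Control spots were left out, outlier spots were set to missing, the spots of a probe were averaged, and 14 probes with a missing value were dropped. The scanner marks each spot that is well above background, and a probe took the mark where a share of 0.5 or more of its spots had it. Groups were compared over all 31848 tested probes by lmFit and eBayes of limma, with p adjusted by Benjamini-Hochberg. Each gene was represented by its brightest probe, by the mean of all arrays. Where a whole group was below background, "at least" gives the brighter group against, per dim array, the higher of the probe's own signal and the least signal that carried the mark. Alternatives changed the scaling, background correction, source of values, filter, probe rule, test, fold and arrays used. Scripts were tested on simulated data. The number of arrays limits the precision.

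Values on every array are given for members past the test by more than 2-fold and for Tcirg1, Atp6v0d2, Clcn7, Ostm1, Car2, Slc4a2, Slc9b2, Snx10 and Plekhm1; and, chosen after their values were seen, for Atp6v0a2 and Atp6v1g2; other members by their differences, with probes that disagree. Each pathway list names the 3 largest rises and falls past the test whose groups do not overlap and whose brighter group carries the mark on every array, and a few further genes chosen after their values were seen; some listed genes are counted but not reported here by name. Members and lists were chosen with earlier results of these data known. All 37 genes were matched to RefSeq by accession. Probe positions are those of the array files (mm9), and promoters come from RefSeq (GRCm38.p6).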

Additional observations from a re-analysis of the deposited data

How the results depend on the processing

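Quantile normalization assumes a like spread of signals on every array, and the 3 arrays of a group limit every test. The median difference of all probes was -0.09 by quantile normalization, -0.14 by 75th percentile scaling, -0.06 after normexp background correction and -0.07 from the series matrix. Of 30 member genes, 29 turned direction under no alternative, the exception being Atp6v0a1 (-0.16 with the mean of its probes). That mean takes in a probe that passed the filter through the Ano1fl/fl group alone. Clcn4-2, which was not called, was at 0 by 75th percentile scaling. Leaving out 1 array at a time gave 36 to 37 member probes higher and 4 to 5 lower, 25 to 25 member genes higher and 2 to 2 lower, and 5834 to 6231 of all probes higher and 7914 to 8713 lower. The labels do not say whether equal numbers pair the samples, and they were not treated as pairs. Deviations of same-numbered arrays correlated at -0.02, -0.08 and -0.09. Taken from the mean of 3 arrays, such deviations cannot exclude pairing. With the number as a replicate block, 37 member probes and 25 member genes were higher, and 5 and 2 lower. Of all probes, 5988 were higher and 8162 lower in that fit. The methods' t-test after Benjamini-Hochberg gave 25 member genes higher and 2 lower, and at an unadjusted p under 0.05, an alternative chosen after seeing the data, 26 and 2, with Clcn5 as the added gene.

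Asking for more than 2-fold left 13 member probes higher and 0 lower, 9 member genes higher and 0 lower, and 2838 of all probes higher and 2584 lower. Asking for more than 1.5-fold left 28 member probes and 18 member genes higher, 2 and 1 lower, and 4403 of all probes higher and 5849 lower. With 1 probe per gene name, 2 member probes and 5988 of all probes were lower. With probes averaged by gene, 23 members were higher and 1 lower, and 4570 higher and 6305 lower over all gene names, which is a smaller number of features. The averages of Atp6v0a1 and Atp6v1g2 each take in a probe that passed the filter in 1 group only. By 75th percentile scaling 4 ruffled border trafficking genes were higher in place of 7 and 8 lower in place of 6, and the cause was not tested. The ratio of Clcn5 to Clcn3, -0.01, turned to 0.07 by 75th percentile scaling, 0.02 after normexp, 0.03 from the series matrix and 0.17 with the mean of all probes, and ran from -0.06 to 0.02 with 1 array left out. The ratio of Clcn4-2 to Clcn3, -0.06, turned to 0.15 with the mean of all probes. With 1 array left out the other ratios ran from 2.21 to 2.47 (Atp6v0d2 to Atp6v0d1), 0.09 to 0.15 (Tcirg1 to Atp6v0a1), -0.93 to -0.77 (Atp6v0a2 to Atp6v0a1), -1.77 to -1.62 (Atp6v1g2 to Atp6v1g1), -0.10 to -0.02 (Clcn4-2 to Clcn3) and -0.43 to -0.24 (Clcn6 to Clcn7).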
